A study of Mus musculus with 4 samples.

Results

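The 40 genes described here are a fixed panel of cell cycle genes, 16 that act in DNA replication and 24 that act in mitosis. They were found by symbol among the 32285 genes of the deposited tables, and all 40 had UMIs (unique molecular identifiers, which count captured RNA molecules) in each library. The libraries are single-cell RNA libraries of tibial fracture calluses, the repair tissue that bridges a broken bone, from 20-month-old male C57BL/6J mice. Of 4 libraries, 2 came from mice given an adenosine microgel (adenosine 1 and adenosine 2) and 2 from mice given an empty control microgel (control 1 and control 2), all harvested 7 days after treatment. Red cells were lysed and viable cells sorted before capture. The labels name the tissue as bone marrow while the titles name callus, and only 35 cells were gated as mesenchymal, so nearly all values below are those of blood-forming and immune cells. No label says that the libraries come from separate mice, so p-values measure the spread between these libraries.

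A cell copies its DNA in S phase and divides in M phase, and each step has its own genes. Before S phase, Cdc6 and Cdt1 load the Mcm2 to Mcm7 helicase onto origins, E2F transcription factors switch on this set, and Pcna then clamps the polymerases to DNA while Rrm1, Rrm2 and Tyms make its building blocks. Mitotic genes such as Top2a, Cdk1 and Plk1 are held down by the DREAM complex at promoter elements named CHR until a cell commits to divide. In marrow, neutrophil precursors divide up to the stage at which they fill their secondary granules, and mature neutrophils no longer do.

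The promoters of 6 members are shown as examples of the letters by which these phases are usually told apart, 4 of mitosis and 2 of replication members. Sequences are from RefSeq on build GRCm38.p6, the 150 bases before the annotated start, read on the gene's own strand. Top2a, the topoisomerase that untangles chromosomes, lies at chr11:99024190-99024339 on the minus strand. Ube2c, an E2 enzyme of the anaphase-promoting complex, lies at chr2:164769779-164769928 on the plus strand. Mki67, the coat protein of mitotic chromosomes, lies at chr7:135716380-135716529 on the minus strand. Cdk1, the mitotic kinase, lies at chr10:69352913-69353062 on the minus strand. Mcm6, a helicase subunit, lies at chr1:128359706-128359855 on the minus strand. Cdc6, the helicase loader, lies at chr11:98908001-98908150 on the plus strand. Capitals mark CCAAT, the CHR core TTTGAA or TTCGAA, and the E2F letters TTTGGCGC, TTTCGCGC or TTTCCCGC, on either strand.
Top2a: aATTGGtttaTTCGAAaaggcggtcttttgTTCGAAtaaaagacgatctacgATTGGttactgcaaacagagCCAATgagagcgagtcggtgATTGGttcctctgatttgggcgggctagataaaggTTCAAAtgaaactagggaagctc
Ube2c: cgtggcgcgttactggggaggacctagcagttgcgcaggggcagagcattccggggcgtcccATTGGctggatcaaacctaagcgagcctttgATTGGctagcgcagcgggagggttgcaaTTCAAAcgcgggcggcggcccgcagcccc
Mki67: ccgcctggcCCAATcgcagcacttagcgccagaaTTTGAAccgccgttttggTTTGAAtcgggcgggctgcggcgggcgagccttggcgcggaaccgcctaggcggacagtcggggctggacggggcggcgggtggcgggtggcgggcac
Cdk1: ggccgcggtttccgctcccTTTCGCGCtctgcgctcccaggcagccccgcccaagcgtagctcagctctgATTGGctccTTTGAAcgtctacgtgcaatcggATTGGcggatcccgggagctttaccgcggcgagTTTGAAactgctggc
Mcm6: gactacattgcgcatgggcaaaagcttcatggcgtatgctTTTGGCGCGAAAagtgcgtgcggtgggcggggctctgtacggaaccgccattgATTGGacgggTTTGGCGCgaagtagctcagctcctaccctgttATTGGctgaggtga
Cdc6: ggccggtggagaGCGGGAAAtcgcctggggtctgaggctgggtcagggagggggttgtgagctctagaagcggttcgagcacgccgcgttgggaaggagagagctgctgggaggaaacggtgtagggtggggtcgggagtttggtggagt
In the Mcm6 promoter 2 of the E2F matches overlap each other and are printed as a single run of capitals.

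RefSeq's table held a promoter for 34 of the 40 members (37 promoters), from 250 bases before to 50 after the start, and had no entry for Mcm4, Gins2, Ccne2, Ccna2, Aurkb and Tpx2. The CHR core stood in 17 of 22 mitosis promoters (77.3%), in 2 of 15 replication promoters (13.3%) and in 19.2% of all 32851 promoters of the table. The E2F letters stood in 7 of 15 replication promoters (46.7%), in 1 of 22 mitosis promoters (4.55%, that of Cdk1) and in 1.84% of all promoters. CCAAT was common to both, at 73.3% of replication and 86.4% of mitosis promoters against 37.4% of all. Searches covered both strands, and a match describes the letters and not a site in use.

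In the 31280 cells kept, the members made up 447448 of 188950769 UMIs (0.237%). Library totals ran from 32277757 UMIs in control 2 to 68117846 in adenosine 2. Between 13 and 28 cell barcodes were shared by each pair of libraries. Control 2 stood apart from the other 3 libraries: mature neutrophils were 71.2% of its cells and secondary granule neutrophils 3.04%, against 29.8% to 40.7% and 22.1% to 25.7% elsewhere. Cells were placed in classes by marker genes that include no member, and 1528 cells (4.88%) met no gate. The gate fixes that each class is high in its own markers. Of the lists of other classes, promyelocytes had a median of 19.9 UMIs in 10000 for the monocyte list, 7.34 for the mature neutrophil list and 6.25 for the secondary granule list, secondary granule neutrophils 29.5 for the mature list and 0 for the promyelocyte list, and mature neutrophils 18.0 for the secondary granule list and 0 for the promyelocyte list.

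The members marked out a distinct set of cells. In 12954 cells no member had a UMI and in 7764 there was 1, while 3808 cells held UMIs of 12 or more different members and only 365 held 8 to 11. Cells with 8 or more members are called dividing cells below, a limit set at this gap after the data were seen. They numbered 4173 and carried 93.3% of all member UMIs in 35.4% of all UMIs. They were chosen by the members, so a high share of member UMIs follows in part from that choice. Their median total was 13402 UMIs against 3183 in the other cells, and deeper cells show more genes, so shares below are also given for cells thinned to an equal depth.

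Among the neutrophil stages, the share of dividing cells fell in the order of development. Of 650 promyelocytes, the early precursors that make the primary granule proteases, 642 were dividing. Of 6313 secondary granule neutrophils, which make lactoferrin and Camp, 1617 were. Of 13658 mature neutrophils 0 held 8 or more members, which allows up to 0.0220% of such cells at their own depth, and 33 held 4 to 7. Their median depth was 2230 to 2685 UMIs against 19226 in dividing promyelocytes, so this does not limit the share of cells in cycle, and the rule at equal depth below read 0.407% to 3.19%. Outside these stages, 1081 of 4649 monocytes, 311 of 1695 T or NK cells and 77 of 1461 B-lineage cells were dividing. So were 101 of 168 cells gated as progenitors, 93 of 119 erythroid cells and 144 of 1528 ungated cells. Secondary granule neutrophils were 45.7%, 46.9%, 37.6% and 33.9% of the dividing cells in control 1, control 2, adenosine 1 and adenosine 2. Values of 4 libraries are given in this order throughout.

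With each cell thinned to 1000 UMIs, and a cell counted where at least 2 members kept a UMI, the share of such cells among all cells was 14.8% in control 1 (95% Wilson interval 14.1 to 15.6), 1.97% in control 2 (1.66 to 2.35), 19.0% in adenosine 1 (18.1 to 19.8) and 19.6% in adenosine 2 (18.7 to 20.5). Both adenosine libraries were above both controls, and the gap between the controls was wider than that between control 1 and either adenosine library. Thinning left out 213, 102, 204 and 128 shallower cells. Unthinned, the same rule gave 34.4%, 13.3%, 37.2% and 45.5%, and 8 or more members gave 13.5%, 1.56%, 17.3% and 18.3%. Intervals cover counting error only. With 2 libraries against 2, an exact permutation test cannot give a two-sided p below 0.333, so none is given for shares or sums.

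Within secondary granule neutrophils the thinned share was 24.4%, 24.1% (18.6 to 30.6 in 191 cells), 26.5% and 28.5%, with both adenosine libraries above both controls by 3.24 percentage points on average, less than the width of that interval. In monocytes it was 21.4% in control 1 and 3.75% (2.69 to 5.23) in control 2, against 35.6% in adenosine 1 and 30.1% in adenosine 2. Unthinned shares were 36.6%, 30.4%, 38.5% and 42.0% for secondary granule neutrophils and 65.5%, 44.0%, 80.5% and 74.6% for monocytes. Mature neutrophils, the class that should not divide, read 2.68%, 0.407%, 3.19% and 2.85% thinned and 12.4%, 2.93%, 11.7% and 10.0% unthinned. They were taken as the background of the thinned rule, on the untested assumption that none of them divide. Kif23 alone made up 33.7% to 51.9% of their mitosis UMIs. Their median depths were 2230 to 2685 UMIs, while monocytes had 9458 to 11154.

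Lymphocytes followed other orders. The thinned share in B-lineage cells was highest in control 1 at 13.7%, with 2.53% (2 of 79 cells) in control 2, 8.20% in adenosine 1 and 9.59% in adenosine 2. In T or NK cells it was 5.95%, 9.30% (4 of 43 cells), 8.56% and 25.0%, so a single library, adenosine 2, stood above the other 3. Promyelocytes were at 89.9%, 83.8% and 81.8% in control 1 and the adenosine libraries, and control 2 had 1 such cell. The promyelocytes themselves numbered 138, 1, 304 and 207, or 1.59%, 0.0159%, 3.71% and 2.55% of cells.

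**Figure D1:**
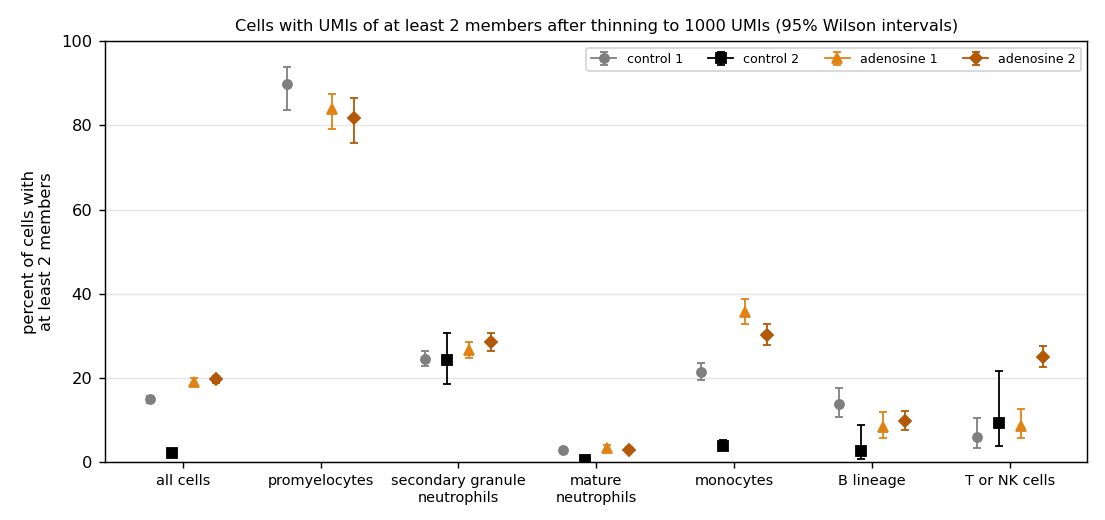
Percent of cells with UMIs of at least 2 members after thinning to 1000 UMIs (vertical axis) by class (horizontal axis) and library, with bars for 95% Wilson intervals; the single promyelocyte of control 2 is not drawn. Secondary granule neutrophils lie between 24.1% and 28.5% in all 4 libraries, while monocytes range from 3.75% in control 2 to 35.6% in adenosine 1.

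Summed over all cells of a library, every member was fitted higher with adenosine and none passed the test. Counts were scaled to the UMI total of each sum and are given as CPM (UMIs of a gene per 1000000 UMIs), and log2 ratios of adenosine over control were fitted with edgeR's quasi-likelihood test, a gene being called at a Benjamini-Hochberg adjusted p under 0.05 over all genes tested. Of 16368 genes 0 were called (background 0%), and at an unadjusted p under 0.05 there were 420 genes (2.57%), 0 of them members; DESeq2 called 14 genes, 0 of them members. The member median was 0.96 against 0.05 over all genes, of which 54.0% were positive. For 35 of 40 members both adenosine libraries lay above both controls, which was so for 26.8% of all genes. Scaled by library size alone, the medians were 1.06 and 0.23. Without control 2 the member median was 0.29, and without control 1 it was 2.19. The sums alone do not separate fewer dividing cells from less RNA per cell. Within dividing cells the mitosis members stood at 4604, 5091, 4205 and 4743 CPM and the replication members at 1669, 1053, 1960 and 1564. Control 2 had 98 such cells. They were chosen by the same genes, and the part of either in the sums was not tested.

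Among the helicase subunits, Mcm6 was at 47.4, 11.2, 77.2 and 72.3 CPM, a log2 ratio of 1.24 ± 0.63 (SE, adjusted p = 0.873). Mcm7 was at 49.7, 8.32, 81.8 and 62.8 CPM, Mcm3 at 49.7, 10.6, 70.9 and 62.8, and Mcm5 at 38.6, 4.77, 60.4 and 40.9. In each of them control 2 was lowest by several times and the adenosine libraries were above control 1 by less. Ccne1, the cyclin that starts S phase, had the highest fitted ratio of all members, 1.44 ± 0.70, at 8.87, 1.84, 17.7 and 13.8 CPM. Gins2, a subunit of the active helicase, was at 11.2, 4.98, 11.5 and 15.1 CPM with a ratio of 0.58, among the 2 lowest.

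The genes of the replication fork and of nucleotide supply were also lowest in control 2. Pcna was at 118, 41.0, 159 and 109 CPM (0.62 ± 0.49), with adenosine 2 below control 1. The ribonucleotide reductase subunits Rrm1 and Rrm2 were at 55.9, 10.9, 96.5 and 57.4 CPM and at 69.5, 10.0, 91.7 and 90.2 CPM. Tyms, which makes thymidylate, was at 38.8, 5.69, 41.7 and 57.3 CPM. The 16 replication members summed to 645, 144, 959 and 742 CPM, a log2 ratio of group means of 1.11.

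Mitosis members were led by Top2a at 212, 47.6, 275 and 261 CPM (0.94). Ube2c was at 167, 32.0, 163 and 212 CPM and Mki67 at 146, 37.2, 194 and 150. Cenpa, the histone variant of centromeres, was at 111, 42.7, 116 and 149 CPM, and Birc5, a subunit of the chromosomal passenger complex, at 99.5, 21.0, 101 and 135. For Ube2c, control 1 lay above adenosine 1 and below adenosine 2, while control 2 was far below all 3. The spindle genes Nusap1 and Kif11 were at 82.5, 20.4, 102 and 108 CPM and at 83.4, 15.4, 105 and 97.7. Kif23, a kinesin of the dividing cell's midbody, had the lowest ratio, 0.52 ± 0.63, at 82.8, 19.7, 89.9 and 69.1 CPM, and without control 2 the ratio was -0.15. The 24 mitosis members summed to 1668, 391, 1991 and 2080 CPM, a ratio of 0.98.

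The UMIs behind these sums came from different classes in different libraries. Monocytes gave 30.8% to 37.0% of member UMIs in every library and secondary granule neutrophils 21.9% to 29.5%. Promyelocytes gave 10.8%, 0.758%, 18.0% and 11.7%, with 1 such cell in control 2. Erythroid precursors gave 15.9% in adenosine 1, from 96 cells, and at most 2.76% elsewhere. T or NK cells gave 24.4% in adenosine 2 and at most 2.71% elsewhere, and B-lineage cells 8.48% in control 1. The 8 classes with at least 10 cells in every library, which leave out promyelocytes and erythroid cells, held 85.9%, 91.0%, 69.6% and 87.0% of UMIs. At each library's own class shares, their replication sum was 516, 126, 638 and 632 CPM and their mitosis sum 1587, 373, 1805 and 2056. At the same mean shares in every library, the replication sum was 463, 200, 590 and 501 CPM (log2 ratio 0.72) and the mitosis sum 1343, 790, 1612 and 1741 (0.65). With equal weight for each class the ratios were 0.39 and 0.36. Without control 1 the first pair of ratios was 1.45 and 1.09, and without control 2 it was 0.23 and 0.31.

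**Figure D2:**
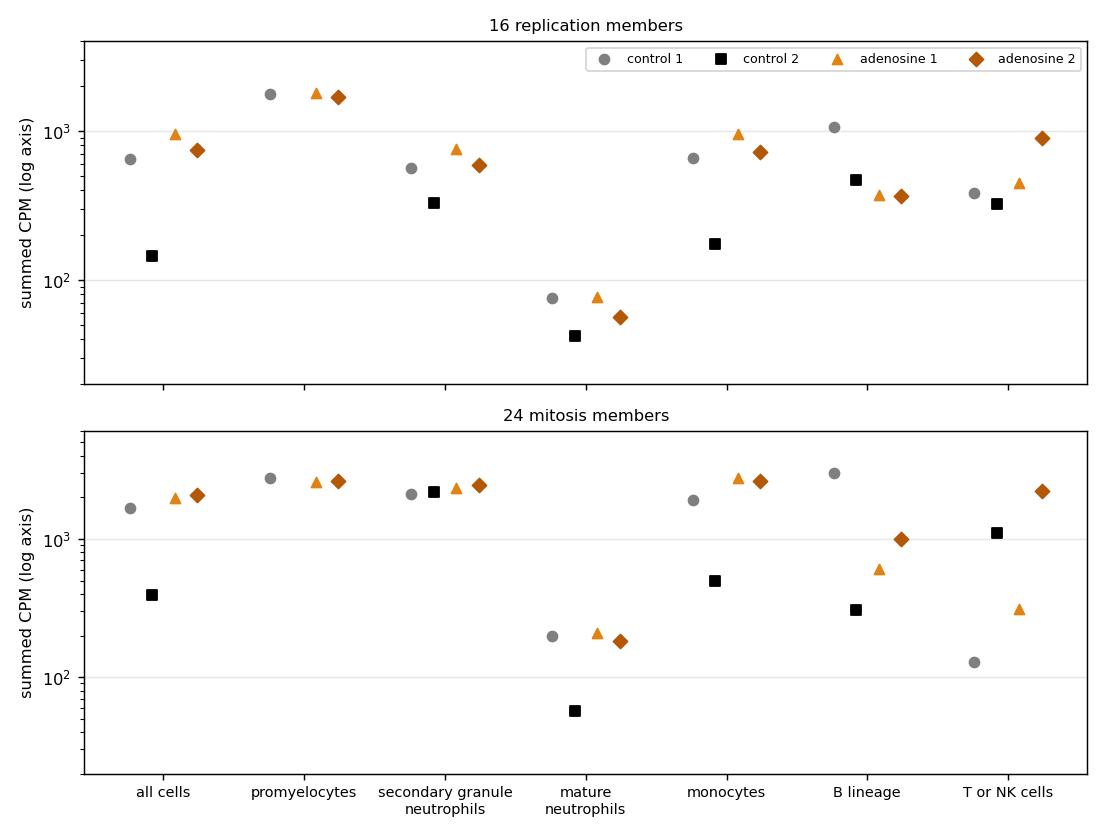
Summed CPM (vertical axis, logarithmic) of the 16 replication members (upper panel) and the 24 mitosis members (lower panel) by class and library, 1 point per library; the single promyelocyte of control 2 is not drawn. In secondary granule neutrophils the mitosis sum runs from 2128 to 2453 CPM in all 4 libraries, while in monocytes control 2 is at 497 and the others between 1906 and 2772.

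In secondary granule neutrophils the sums of both phases were higher in the adenosine libraries, by a smaller ratio for mitosis than for replication members. The mitosis sum was 2128, 2186, 2338 and 2453 CPM (log2 ratio 0.15), and the replication sum was 560, 329, 761 and 593 CPM (0.61). Of 11281 genes edgeR called 0 (background 0%) and DESeq2 called 0 members. At an unadjusted p under 0.05 there were 2 of 40 members against 1.81% of all genes. The member median was 0.24, and 18 members had both adenosine libraries above both controls (13.7% of all genes).

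Mcm6 and Mcm7 had the highest ratios there, Mcm6 at 27.6, 17.3, 47.7 and 34.5 CPM (0.71 ± 0.25) and Mcm7 at 37.3, 25.4, 59.5 and 45.5 CPM (0.60 ± 0.23). For both, the adenosine libraries lay above both controls, with an adjusted p of 1.00. The lowest ratios were those of Mki67, at 184, 232, 232 and 165 CPM (-0.22), and of Cenpf, a kinetochore protein, at 93.2, 134, 97.8 and 106 CPM (-0.26). Without control 2 these 2 ratios were 0.08 and 0.14. Top2a was at 266, 279, 323 and 304 CPM (0.08), a narrower range than over all cells. Replication UMIs per mitosis UMI were 0.263, 0.150, 0.325 and 0.242, lowest in control 2, whose sum rests on 191 cells. Elane, a gene of the preceding stage, was at 149, 101, 204 and 263 CPM in these cells, and Ltf at 7685, 6878, 7646 and 7736. Their part in the replication values was not tested.

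In monocytes all 40 members were fitted higher with adenosine, and 0 of 12690 genes were called by edgeR (background 0%), with 0 members at an unadjusted p under 0.05 (1.96% of all genes) and 0 called by DESeq2. The member median was 1.07 and 35 of 40 members had both adenosine libraries above both controls (17.1% of all genes). The replication sum was 655, 174, 959 and 725 CPM and the mitosis sum 1906, 497, 2772 and 2641. Leaving out control 1, so that control 2 alone stands for the controls and is taken to vary like the adenosine libraries, edgeR called 37 members, all higher, and 6.54% of all genes. Leaving out any of the other 3 libraries, it called 0.

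Cdc20, which activates the anaphase-promoting complex, had the highest ratio in monocytes, 1.39, at 41.0, 7.05, 61.7 and 69.0 CPM. Ccnb1, the mitotic cyclin, was at 40.6, 10.5, 64.3 and 66.2 CPM (1.28) and Top2a at 233, 63.4, 361 and 330 (1.15 ± 0.57, adjusted p = 0.999). All 3 genes had control 2 lowest and control 1 below both adenosine libraries. Pcna, at 134, 53.6, 175 and 116 CPM (0.54), and Gins2, at 11.8, 4.97, 9.91 and 15.8 CPM (0.55), had the lowest ratios and overlapping groups. Replication UMIs per mitosis UMI in monocytes were 0.344, 0.350, 0.346 and 0.274, so both phases were low together in control 2. Genes of early myeloid precursors were lowest in control 2 as well. Elane was at 136, 10.7, 191 and 136 CPM in the monocyte class and Prtn3 at 359, 77.1, 447 and 347. Ly6c2, a gene of classical monocytes, was at 1176, 465, 1318 and 1938 CPM. Cx3cr1 was at 176, 149, 87.2 and 96.9 CPM, with both controls above both adenosine libraries. These genes were added after the member values were seen, and their part in the result was not tested. The difference between the adenosine change in secondary granule neutrophils and that in monocytes had a member median of -1.10 (0.03 over all genes), and edgeR's interaction test called 0 of 13074 genes (background 0%), with 0 members at an unadjusted p under 0.05 and 0 members called by DESeq2. It called 25 members without control 1 (1.58% of all genes) and 19 with no filter on low counts (0.732%), all of them on the side of a larger change in monocytes.

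Mature neutrophils held few member UMIs. Of 37 members tested 33 were fitted higher with adenosine (median 0.85), 0 of 10334 genes were called by edgeR (background 0%) and 0 members by DESeq2, and 0 members had an unadjusted p under 0.05 (2.65% of all genes). Both adenosine libraries lay above both controls for 14 members (14.8% of all genes). The replication sum was 75.9, 42.0, 76.6 and 56.1 CPM and the mitosis sum 199, 56.5, 208 and 183, with log2 ratios of 0.17 and 0.61 that were -0.19 and -0.025 without control 2. Mcm2 and Cdc20 had the highest ratios, 1.32 and 1.31, at 3.32, 0.303, 5.33 and 3.50 CPM and at 2.52, 0.682, 4.03 and 3.85 CPM. Pcna, at 24.9, 20.7, 21.3 and 11.7 CPM (-0.54), and Gins2, at 1.03, 3.71, 1.17 and 1.58 CPM (-0.92), had the lowest, and the Gins2 ratio was 0.43 without control 2. Without control 1, edgeR called 16 members and 19.9% of all genes.

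In B-lineage cells the ratios pointed the other way. All 40 members were fitted lower with adenosine (median -1.15), 0 of 10148 genes were called by edgeR (background 0%) and 0 members by DESeq2, and 12 members had an unadjusted p under 0.05 (4.82% of all genes). Control 1 was highest: the mitosis sum was 3016, 309, 608 and 997 CPM and the replication sum 1057, 468, 373 and 366. Both adenosine libraries lay below both controls for 10 members (17.6% of all genes). Without control 1 the mitosis ratio of -1.05 became 1.38 and the replication ratio of -1.05 became -0.34, and edgeR called 25 members without control 2 (1.76% of all genes), 1 without adenosine 1 (0.367%) and 5 with no filter on low counts (0.612%). Gins2 was at 21.3, 18.9, 3.37 and 6.59 CPM (-1.94 ± 0.56). Uhrf1, which takes part in the copying of DNA methylation, was at 125, 35.2, 31.7 and 16.7 CPM (-1.87 ± 0.52, adjusted p = 0.880). Cdt1, at 40.9, 46.0, 31.0 and 30.5 CPM (-0.48), and Ccne1, at 10.0, 2.71, 8.09 and 3.47 CPM (-0.53), had the smallest changes. The pre-B genes Vpreb1 and Igll1, added after the data were seen, were at 797, 373, 104 and 152 CPM and at 648, 290, 82.9 and 124 CPM, with the 2 controls above the 2 adenosine libraries. Rag1 and Dntt, which act in receptor gene rearrangement, were at 89.0, 5.41, 54.6 and 31.2 CPM and at 223, 81.2, 64.7 and 81.5 CPM, with overlapping groups. The part of these genes in the result was not tested.

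In T or NK cells 36 members were tested and all 36 were fitted higher (median 1.43), with 0 of 9181 genes called by edgeR (background 0%), 0 members called by DESeq2 and 3 members at an unadjusted p under 0.05 (1.44%). Only 5 members had both adenosine libraries above both controls (10.5% of all genes). Adenosine 2 held 1210 of the 1695 cells. The replication sum was 382, 324, 446 and 893 CPM and the mitosis sum 128, 1098, 311 and 2237, highest in adenosine 2, and the mitosis ratio of 1.06 became -0.98 without it. Tpx2, which builds the spindle, was at 4.22, 26.7, 15.0 and 91.7 CPM and Cdc20 at 0.843, 16.7, 3.01 and 57.8. Cdt1 (0.11) and Mcm4 (0.61) had the lowest ratios, at 35.4, 23.4, 33.1 and 30.7 CPM and at 31.2, 43.4, 41.4 and 63.7 CPM. Cd8b1, a CD8 T-cell gene, was at 129, 290, 116 and 912 CPM, Ifng at 20.2, 10.0, 15.0 and 84.5, and Ncr1, an NK-cell gene, at 222, 337, 227 and 37.4. Gzmb was at 45.5, 420, 90.2 and 85.9 CPM, highest in control 2. Cd8a was at 80.1, 150, 105 and 212 CPM and Cd4 at 47.2, 36.7, 47.4 and 12.1. These genes outside the panel were added after the data were seen and their part in the result was not tested. Without adenosine 1, which leaves adenosine 2 alone, 26 members and 4.13% of all genes were called, and with no filter on low counts 2 members and 0.366% of all genes were.

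The smaller tested classes gave 0 called members each by edgeR and by DESeq2. In conventional dendritic cells 19 members were tested, with a median of 0.45, 3 of them at an unadjusted p under 0.05 (2.02% of all genes) and 4 with both adenosine libraries above both controls (17.1%). In plasmacytoid dendritic cells the median of 27 members was -0.10, and in macrophages 9 members were tested, in both classes with 0 at an unadjusted p under 0.05 (1.19% and 4.27% of all genes). Without control 1 edgeR called 5 members in conventional dendritic cells (2.74% of all genes) and 3 in plasmacytoid dendritic cells (2.34%). Macrophages, both dendritic classes and T or NK cells had under 50 cells in at least 1 library.

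The neutrophil stages were compared with edgeR's quasi-likelihood test on 11 sums with the library as a block, leaving out the single promyelocyte of control 2. Both phases were higher in promyelocytes than in mature neutrophils, with 39 of 40 members called higher against 42.9% of all genes, at medians of 3.97 for replication and 4.51 for mitosis (0.14 over all genes). Bub1, a checkpoint kinase (5.29 ± 0.32), and Tpx2 (5.52 ± 0.39) had the highest ratios, and Cenpa among the lowest was still at 1.98 ± 0.19. In secondary granule over mature neutrophils 39 of 40 were again called higher, against 33.2% of all genes. There the mitosis median was 4.81 and the replication median 2.95, with Tpx2 (5.92 ± 0.38) and Cenpf (5.74 ± 0.49) highest and Gins2 at 1.69 ± 0.34. The exception in both comparisons was Kif23, described below.

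From promyelocytes to secondary granule neutrophils most replication members were lower and most mitosis members were not called. Of 16 replication members 12 (75.0%) were called lower, against 34.9% of all genes, and 0 higher, with a median of -1.01. Of 24 mitosis members 6 (25.0%) were called higher, a smaller share than the 34.5% of all genes, and 0 lower, with a median of 0.47. The all-gene median was 0.02. Scaled by library size alone, which puts the all-gene median at -0.59, the medians were -1.61 and -0.14, so the mitosis median changed sign with the scaling and the replication median did not. The helicase and its loaders led the fall. Gins2 fell by 1.93 ± 0.27 on the log2 scale (adjusted p = 0.000101), from 33.8, 28.0 and 49.1 CPM in promyelocytes of control 1, adenosine 1 and adenosine 2 to 6.25, 6.31 and 7.73 CPM in secondary granule cells of the same libraries. Mcm3 fell by 1.57 ± 0.32 (adjusted p = 0.0013), from 164, 154 and 167 to 31.1, 37.2 and 30.5 CPM. Mcm6 fell by 1.48, from 148, 172 and 166 to 27.6, 47.7 and 34.5 CPM, and no value of one stage reached those of the other.

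The remaining licensing genes followed: Cdt1 fell by 1.56, Mcm2 by 1.33, Mcm7 by 1.19, Mcm4 by 1.14, Mcm5 by 1.01 and Cdc6 by 1.00. Pcna fell by 0.76, Uhrf1 by 0.59 and Rrm1 by 0.52. The 4 replication members that were not called were Rrm2 (0.15), Ccne2 (0.03), Ccne1 (-0.30) and Tyms (-0.58, adjusted p = 0.0655). The 6 mitosis members that rose were Kif23 (1.23 ± 0.24, adjusted p = 0.00105), Cenpf (1.06 ± 0.42, adjusted p = 0.0429), Nusap1 (0.98), Mki67 (0.92), Kif11 (0.82) and Prc1, which bundles spindle microtubules (0.68). Cenpf went from 86.3, 77.2 and 85.8 CPM to 93.2, 97.8 and 106 CPM in the same 3 libraries, a small step in CPM beside those of the helicase genes. The number of mitosis members called higher depended on the scaling. With library size alone, 15 replication members were called lower and 1 mitosis member, Kif23, higher (0.62, adjusted p = 0.0367), against 20.4% of all genes higher. The call of Cenpf was also lost by DESeq2 (adjusted p = 0.0828), without the library block (0.0958), with doublets kept (0.0783) and without each of control 1, adenosine 1 and adenosine 2 (0.122 to 0.185). Without control 2, which has no promyelocytes in the fit, 16 mitosis members were called higher, and 30 members in all against 18, with 39.4% of all genes called higher and 77.0% called in all.

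Between the dividing cells of the 2 stages, replication CPM was also lower in the later stage, while mitosis CPM was higher. Over all cells of a stage, the mitosis sum in CPM was lower in secondary granule neutrophils. It was 2128, 2338 and 2453 CPM there in control 1, adenosine 1 and adenosine 2, against 2783, 2600 and 2607 in promyelocytes. Dividing promyelocytes held 1767 CPM of replication and 2646 CPM of mitosis members, dividing secondary granule neutrophils 1359 and 5180 CPM, and dividing monocytes 1579 and 5469 CPM. More replication than mitosis UMIs were found in 50.5% of dividing promyelocytes (46.6 to 54.3), in 19.9% of dividing secondary granule neutrophils (18.0 to 21.9) and in 24.3% of dividing monocytes (21.9 to 27.0). In dividing cells gated as progenitors it was 65.3% of 101 cells, and in T or NK cells 42.8% of 311. These are shares of cells of all libraries together, given as a description, since the cells were chosen by the same genes. Per library the promyelocyte share was 53.6%, 50.2% and 49.0% in control 1, adenosine 1 and adenosine 2, and the secondary granule share 19.7%, 13.0%, 22.4% and 18.2%. Dividing secondary granule neutrophils had a median of 9319 UMIs and dividing promyelocytes 19226.

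Kif23 did not follow the other mitosis members of the panel. It was lower in promyelocytes than in mature neutrophils (-1.07 ± 0.23, adjusted p = 0.00153, a call that 38.5% of all genes shared). Scaled by library size alone, which puts the all-gene median at 0.94, this ratio was -0.27 (adjusted p = 0.293). The secondary granule to mature ratio was 0.16 ± 0.21 (adjusted p = 0.538), and it was -0.12 without control 2. In mature neutrophils Kif23 was at 96.7, 22.2, 108 and 61.8 CPM, while Top2a was at 7.22, 0.303, 7.81 and 8.76. Kif23 alone made up 48.5%, 39.3%, 51.9% and 33.7% of the mitosis UMIs of that class, and had a UMI in 18.2%, 5.41%, 19.8% and 12.4% of its cells. Without it the mitosis sum of mature neutrophils was 103, 34.3, 100.2 and 122 CPM in place of 199, 56.5, 208 and 183. Outside the panel, 2 of 47 other mitosis genes were also called lower in promyelocytes than in mature neutrophils, and 44 higher. Hjurp was at 111, 38.3, 140 and 117 CPM in mature neutrophils. In promyelocytes of control 1, adenosine 1 and adenosine 2 it was at 95.1, 100 and 76.4 CPM.

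Outside dividing cells Kif23 was at 65.7 CPM in mature neutrophils, 15.9 in secondary granule neutrophils, 7.34 in monocytes, 6.22 in T or NK cells and 5.16 in the B lineage. The level thus differed between classes, whose depths differ as well, and the cause of the difference was not tested. Only 76.0% of all Kif23 UMIs lay in dividing cells, the lowest share of the members, followed by Cdt1 at 76.6% and Pcna at 79.2%, and Bub1 was highest at 98.4%. In the GENCODE M21 annotation of build GRCm38, Kif23 lies on chr9 from 61915905 to 61946774 on the minus strand. No other annotated gene overlaps it, and the nearest, the ribosomal protein gene Rplp1, lies 1363 bases from its 3' end on the same strand.

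**Figure D3:**
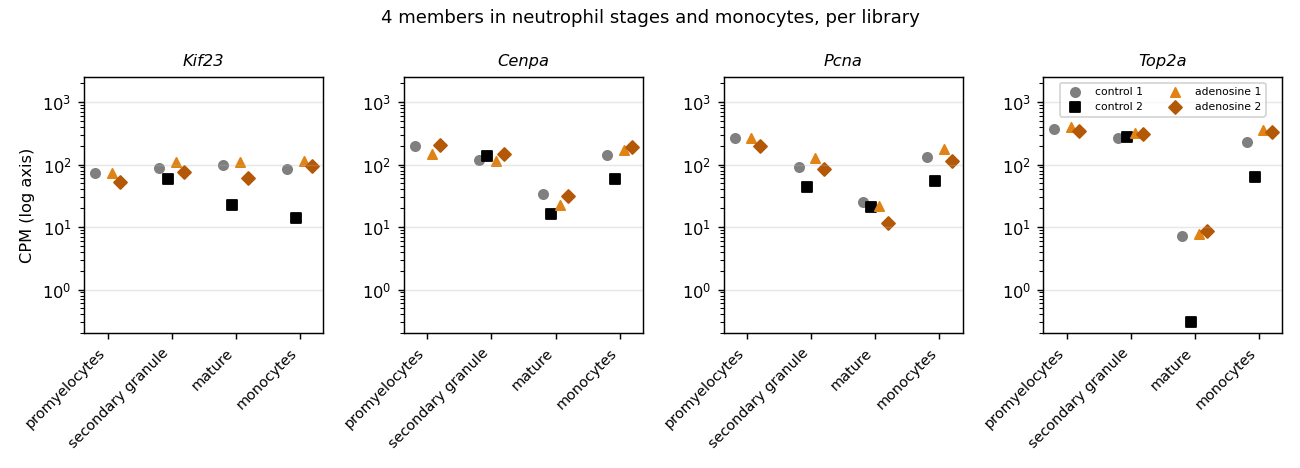
CPM (vertical axis, logarithmic) of Kif23, Cenpa, Pcna and Top2a in promyelocytes, secondary granule neutrophils, mature neutrophils and monocytes, 1 point per library; the single promyelocyte of control 2 is not drawn. Top2a falls to 8.76 CPM or less in mature neutrophils, while Kif23 is at 61.8 to 108 CPM in 3 libraries and at 22.2 in control 2.

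Lists of other cell cycle genes were read in the same fits. With all cells, 40 of 40 other replication genes (median 0.89) and 46 of 47 other mitosis genes (0.91) were fitted higher with adenosine, as were 17 of 20 E2F, RB and G1 regulators (0.53), while 3 of 11 inhibitors of the cycle were (-0.51). edgeR called 0 genes of these lists. Btg1, an anti-proliferative gene of resting cells, was at 742, 2617, 598 and 552 CPM, highest in control 2. From promyelocytes to secondary granule neutrophils, 33 of 40 other replication genes (82.5%) were called lower and 1 (Cdc7) higher, against 34.9% and 34.5% of all genes. Of 47 other mitosis genes 17 (36.2%), close to the share of all genes, were called higher and 3 lower (Pttg1, Cks1b and Mybl2). Dut, which keeps uracil out of DNA, fell by 1.58 and Pola1, the priming polymerase, fell by 1.41. The mitosis genes Smc4 and Bub3 rose by 0.51 and 0.40 in the TMM scaling, but both were lower in CPM. In control 1, adenosine 1 and adenosine 2, Smc4 went from 254, 262 and 210 CPM to 203, 234 and 204. Bub3 went from 160, 136 and 157 CPM to 117, 133 and 128.

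Of 20 regulators of G1, 8 (40.0%) were called higher and 9 (45.0%) lower between these stages, shares not far from those of all genes. Cdk6, a cyclin D kinase of early progenitors, fell by 2.92, from 679, 998 and 611 CPM in promyelocytes of the 3 libraries, while Ccnd3, its cyclin partner, rose by 2.40 and Rb1, which restrains E2F, rose by 1.52. Of 8 inhibitors tested 7 (87.5%) were called higher, against 34.5% of all genes, among them Btg2 (2.97), Mxi1 (2.09) and Btg1 (1.65). These values describe classes in which 642 of 650 and 1617 of 6313 cells were dividing.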

How the data were processed

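UMI counts per gene and cell barcode were deposited by the authors. Per the submitters' processing notes, bcl2fastq and Cell Ranger 7.0.0 were used with build mm10. Whether intronic reads were counted is not given in the sources used here. Cells with under 200 genes or over 10% mitochondrial UMIs were removed (1576), then 2418 likely doublets by Scrublet rank (0.8% per 1000 barcodes), since its automatic threshold marked 0% of cells in 3 libraries and 2.3% in adenosine 2. A cell took the class with the highest scaled marker score if it led by 0.05. No marker is a member, and 1439 gated cells led by less than 0.10. Counts were summed per library and class, for the 8 classes with at least 10 cells in every library, and tested with edgeR 4.0.16 (TMM scaling, filterByExpr, quasi-likelihood test). DESeq2 1.42.0, library size alone, no filter, doublets kept, a stricter gate, a replicate block and each library left out were alternatives. The fits were tested on simulated data of all cells, secondary granule neutrophils and monocytes. Of 100 genes changed 2-fold, 96, 93 and 86 were recovered at a simulated coefficient of variation of 0.1. At 0.3 it was 7, 2 and 4. The biological coefficients of variation fitted to the real data were 0.49, 0.26 and 0.36. A member not called in a treatment comparison may therefore still have changed. Named were the 8 members per phase with most UMIs, the 2 highest and 2 lowest ratios per fit and up to 3 genes per other list. Members and lists were chosen with earlier results of these data known. The labels give no batch. Same-numbered libraries had a correlation of deviations of -0.108. With 2 libraries per group both pairs give this same value, so it cannot show whether the numbers pair the libraries.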

Additional observations from a re-analysis of the deposited data

How the results depend on the processing

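Over the counts, sums and shares reported, 267 of 308 alternatives stayed close to the reported value and 41 moved it. Of 519 values of named members, 492 kept their direction and side of the threshold. The cause of each change below was not tested, except that a fit without one library has 1 sample in that group, taken to vary like the others. Leaving out each library in turn gave 0 to 16 called members in mature neutrophils, 0 to 37 in monocytes, 0 to 5 in conventional and 0 to 3 in plasmacytoid dendritic cells, and 0 to 25 in the interaction test, each time highest without control 1. It gave 0 to 25 in the B lineage (25 without control 2, 1 without adenosine 1), 0 to 26 in T or NK cells, 12 to 30 in secondary granule over promyelocyte, and 2 to 16 mitosis members higher there. Without low-count filtering edgeR called 5 members in the B lineage, 2 in T or NK cells and 19 in the interaction test.

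Log2 ratios of the sums ranged, over the libraries left out, from 0.40 to 2.56 (replication) and 0.29 to 2.38 (mitosis) in all cells, 0.27 to 1.04 (replication) in secondary granule neutrophils, -0.19 to 0.66 and -0.025 to 1.79 in mature neutrophils, and 0.36 to 2.27 and 0.51 to 2.45 in monocytes. They ranged from -1.52 to -0.34 and -1.91 to 1.38 in the B lineage, 0.34 to 1.34 and -0.98 to 3.31 in T or NK cells, and 0.23 to 1.45 and 0.31 to 1.09 with fixed class shares. Scaled by TMM, the mitosis ratio of secondary granule neutrophils was 0.038. The mitosis members called higher in secondary granule over promyelocyte numbered 3 without the library block, 1 with library size alone, 10 with no filter and 3 by DESeq2, against 6.

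Adenosine minus control shares of cells with 2 members were 10.9 percentage points in all cells, 3.24 in secondary granule and 1.48 in mature neutrophils. Without thinning they were 17.5, 6.80 and 3.19. Thinned to 2000 UMIs the neutrophil values were 5.21 and 2.70, with at least 3 members 2.20 and 0.19, and with 8 members unthinned 0 in mature cells. Ratios of named members that turned direction with a library left out ranged from -0.15 to 1.66 for Kif23 in all cells and from -0.12 to 0.32 in secondary granule over mature neutrophils, from -0.65 to 0.14 for Cenpf and -0.53 to 0.082 for Mki67 in secondary granule neutrophils, from -1.58 to 0.43 for Gins2 in mature neutrophils, and from -0.076 to 0.40 for Cdt1 in T or NK cells, turning in each case without control 2. Ccne1 in the B lineage ranged from -1.07 to 0.89 and turned without control 1 (0.89) and without adenosine 2 (0.03).

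With the replicate number as a block, 0 members were called in every treatment comparison, as without it. With the numbers crossed between the groups, an alternative chosen after seeing the data, 0 members were called too (55 genes in secondary granule neutrophils against 5 with the uncrossed block). The limit of 8 members, the context genes and the alternatives of the interaction test were also chosen after seeing the data.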
